A study of Homo sapiens
Mus musculus with 24 samples.

Results

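The host of these tumors was followed here through 10 murine genes of cell division: Mki67, Top2a, Ccnb1, Ccna2, Cdk1, Birc5, Mcm2, Mcm5, Rrm2 and Cdc20. They were listed by symbol and looked up in the murine table, which held all 10 among its 16667 genes. The human table of the same libraries held a gene of the same name for each of the 10, so that the host level could be set beside that of the grafted cells.

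A dividing cell passes through a phase of DNA synthesis and then through mitosis, and both phases need sets of genes that resting cells keep low. Minichromosome maintenance proteins and ribonucleotide reductase serve the copying of DNA, cyclins drive the cyclin-dependent kinase Cdk1 into mitosis, and survivin, topoisomerase and Cdc20 serve the separation of chromosomes. In a xenograft the murine transcripts come from stroma, such as fibroblasts, endothelial cells and macrophages, so murine reads of these genes can follow the cycling of the host apart from that of the tumor cells. In a piece of tumor, fewer cycling cells cannot be told apart from less RNA of these genes in each cycling cell.

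B6/Rag1KO mice, which lack mature B and T cells, were females and carried subcutaneous tumors of the injected MDA-MB-231 cells, a human triple negative breast cancer line, implanted when the mice were 14 weeks old. Treatment followed once the tumors were larger than 200 mm3. Mice on a high-fat diet received saline (CTRL, n = 4), weekly doxorubicin with cyclophosphamide (Chemo, n = 5), moringa concentrate in the diet (MC, n = 5) or both (MC + Chemo, n = 6). Tumor-bearing mice on the lean diet had no intervention (Lean, n = 4). Each of the 24 libraries was 1 tumor of 1 mouse and is named by its group and mouse number, so the p-values measure the spread between mice. One library, MC + Chemo 5, carries the title of MC + Chemo and the intervention field of MC, and its title was followed.

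Murine reads numbered 3664056 to 9892470 per library and made up 26.0 to 52.2% of all reads counted, with MC 41 at the top. Of 8 listed B and T cell markers only Cd4 was in the murine table, at 14.4 to 80.3 normalized counts, while the fibroblast collagen Col1a1 had a median of 25163 and the macrophage lysozyme Lyz2 one of 9873. MDA-MB-231 cells are known for little E-cadherin, and the human reads of most libraries went against this, with a median of 2852 normalized counts of human CDH1. CDH1 was 1 of several listed human markers and does not stand for the others. The medians of human CD44, KRT18, KRT8, ERBB2 and ESR1 were 4606, 11405, 2865, 458 and 29.0, and PGR was absent from the human table. A set of 3 libraries stood apart from the rest by low human CDH1, namely CTRL 17 at 2.73, CTRL 44 at 312 and Lean 24 at 633, while the other 21 ran from 1656 to 4472. MC 41, MC + Chemo 43 and MC + Chemo 52 were highest in summed murine muscle and adipocyte markers, at 115843, 72189 and 75357. The library next in order, also of MC + Chemo, had 55704, so no clear gap set these 3 apart. The cut at 3 was chosen after the data were seen. The medians over the 10 genes, and the single genes that moved most, are given with and without each set of 3 libraries.

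All 10 proliferation genes were lower on average in each of the 3 treated groups on the high-fat diet than in CTRL, and none of these differences passed the test. The median log2 difference over the 10 was -0.44 in Chemo (range -0.73 to -0.14), -0.58 in MC (-0.76 to -0.058) and -0.47 in MC + Chemo (-1.04 to -0.12), each against the same 4 CTRL libraries, where the median over all murine genes tested was -0.0021, 0.00053 and 0.011. The level used throughout is the authors' normalized count, a read count divided by the size factor of its library, and the log2 differences with their standard errors come from edgeR on the raw counts, with p adjusted over all genes tested.

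The number of members past an adjusted p of 0.05 was 0 in Chemo, MC and MC + Chemo against CTRL, where edgeR called 0% of all genes, and DESeq2 also called 0 of the 10 in each, where it called 0.132%, 1.69% and 1.14% of all genes. At an unadjusted p below 0.05, edgeR placed 2 of the 10 lower in Chemo (Ccna2 and Rrm2), against 2.4% of all genes tested. In MC it placed 4 lower (Ccna2, Rrm2, Ccnb1 and Cdk1), against 3.04% of all genes. In MC + Chemo it placed 5 lower (Ccna2, Rrm2, Mki67, Cdk1 and Top2a), against 7.34%. DESeq2 had 2, 5 and 5 members lower at the same limit, against 2.82%, 3.64% and 7.44% of all genes, with a lowest adjusted p of 0.402, 0.0744 and 0.0589.

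**Figure D1:**
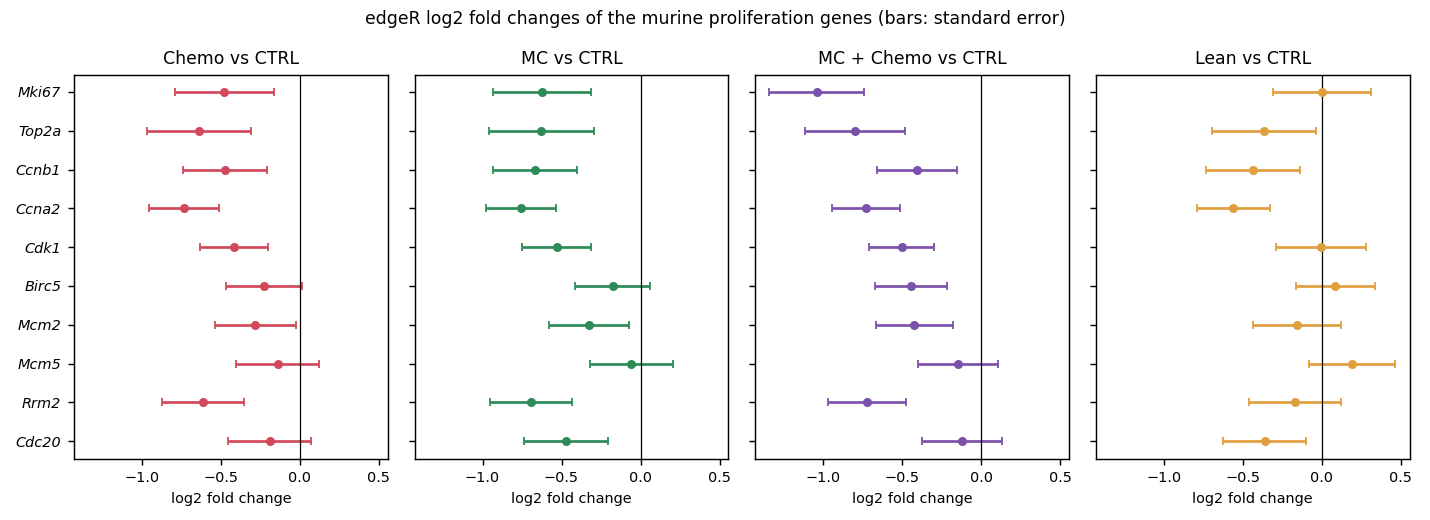
Log2 fold changes of the 10 murine proliferation genes against CTRL (x axis) in 4 panels for Chemo, MC, MC + Chemo and Lean, with points for the edgeR estimate and bars for its standard error. All points of the 3 treated groups lie left of 0, down to -1.04 for Mki67 in MC + Chemo, and those of Lean lie on both sides.

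Mki67 (ENSMUSG00000031004) encodes the Ki-67 protein, the usual histological marker of cycling cells. The 4 CTRL libraries had 164, 161, 226 and 152 normalized counts of Mki67, the 5 Chemo libraries had 91.2, 144, 112, 183 and 97.9, and the 5 MC libraries had 88.9, 88.9, 137, 113 and 135. The 6 MC + Chemo libraries ran from 28.2 through a median of 92.0 to 119.7, and the 4 Lean libraries had 151, 149, 193 and 206. Every MC library and every MC + Chemo library lay below the lowest CTRL library, whereas 1 of the 5 Chemo libraries, Chemo 34, lay among those of CTRL, and Lean overlapped CTRL.

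Mean levels of Mki67 (± SD) were 176 ± 33.6 for CTRL, 126 ± 38.0 for Chemo, 112 ± 23.5 for MC, 85.1 ± 36.5 for MC + Chemo and 175 ± 29.1 for Lean. Mki67 differed from CTRL on the log2 scale by -0.48 ± 0.31 in Chemo, -0.62 ± 0.31 in MC and -1.04 ± 0.30 in MC + Chemo (adjusted p = 1.00, 0.440 and 0.224). The exact two-sided permutation p of Mki67 was 0.0159 for MC and 0.00952 for MC + Chemo, unadjusted, which is the smallest these group sizes can give. The lowest value of all 24 libraries, in MC + Chemo 52, rested on 32 reads. The set of 3 libraries highest in summed muscle and adipocyte markers includes MC + Chemo 52. Without this set the log2 difference of Mki67 was -0.56 in MC and -0.73 in MC + Chemo.

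Ccna2 (ENSMUSG00000027715), cyclin A2, accompanies both DNA synthesis and entry into mitosis. Normalized counts of Ccna2 were 107, 81.1, 141 and 57.2 in the 4 CTRL mice, 57.6, 66.3, 50.4, 49.6 and 63.7 in the 5 Chemo mice and 47.6, 52.6, 66.1, 48.2 and 66.0 in the 5 MC mice. The lowest of the 6 MC + Chemo mice had 45.7, their median was 56.5 and the highest had 79.2, while the 4 Lean mice had 64.6, 44.9, 81.4 and 67.5. The CTRL libraries were spread widely, with CTRL 44 and CTRL 17 highest and CTRL 70 level with the treated groups, which were narrow, apart from MC + Chemo 25, and lay on top of each other.

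Mean levels of Ccna2 (± SD) were 96.5 ± 35.9 for CTRL, 57.5 ± 7.54 for Chemo, 56.1 ± 9.30 for MC, 58.5 ± 11.1 for MC + Chemo and 64.6 ± 15.0 for Lean. The log2 difference of Ccna2 from CTRL was -0.73 ± 0.22 in Chemo, -0.76 ± 0.22 in MC and -0.73 ± 0.21 in MC + Chemo (adjusted p = 0.815, 0.242 and 0.225). Ccna2 was thus about equally low in the 3 treated groups, with a lowest DESeq2 adjusted p of 0.0744 in MC. Without CTRL 17, CTRL 44 and Lean 24 the log2 differences of Ccna2 were -0.27, -0.31 and -0.28.

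Cdk1 (ENSMUSG00000019942) is the kinase that drives mitosis, and Ccnb1 (ENSMUSG00000041431), cyclin B1, is its partner. The 4 CTRL libraries had 172, 137, 182 and 157 normalized counts of Cdk1, the 5 Chemo libraries had 116, 96.5, 95.8, 149.6 and 146, and the 5 MC libraries had 114, 67.1, 129, 127 and 117. The 6 MC + Chemo libraries ran from 78.4 through a median of 110.4 to 169.9, and the 4 Lean libraries had 113, 89.9, 302 and 138. All 5 MC libraries lay below the 4 CTRL libraries, MC + Chemo 25 was the only library of its group among those of CTRL, and Lean 24 stood far above every other library. The log2 difference of Cdk1 from CTRL was -0.42 ± 0.22 in Chemo, -0.53 ± 0.22 in MC and -0.50 ± 0.21 in MC + Chemo (adjusted p = 1.00, 0.336 and 0.336).

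Ccnb1 ran from 101 to 135 normalized counts in CTRL mice, 52.4 to 133 with Chemo, 50.8 to 93.2 with MC, 62.6 to 133 with MC + Chemo and 48.7 to 134 in Lean mice. The MC libraries of Ccnb1 again lay below all of CTRL, and 1 library each of Chemo, of MC + Chemo and of Lean came close to the highest CTRL library. Ccnb1 differed from CTRL on the log2 scale by -0.47 ± 0.27 in Chemo, -0.67 ± 0.27 in MC and -0.41 ± 0.25 in MC + Chemo (adjusted p = 1.00, 0.326 and 0.521). Without Chemo 67, the highest Chemo library, Ccnb1 was at -0.75 in Chemo. Mki67, Ccnb1 and Cdk1 were the 3 members with MC entirely below CTRL, a pattern held by 0.939% of all genes, and Mki67 alone had MC + Chemo entirely below CTRL, as had 1.62% of all genes. The exact permutation p of Ccnb1 and Cdk1 in MC was 0.0159, unadjusted and again the smallest possible.

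Rrm2 (ENSMUSG00000020649), the regulated subunit of ribonucleotide reductase, supplies building blocks for DNA. Normalized counts of Rrm2 were 38.4, 51.2, 70.5 and 57.8 in the 4 CTRL mice, 27.6, 33.7, 42.4, 44.7 and 28.5 in the 5 Chemo mice and 36.5, 26.3, 41.1, 30.1 and 32.4 in the 5 MC mice. The lowest of the 6 MC + Chemo mice had 17.6, their median was 33.6 and the highest had 41.4, while the 4 Lean mice had 49.5, 39.3, 75.7 and 27.5. CTRL and the treated groups overlapped through CTRL 17, the lowest CTRL library, and MC + Chemo 52 was the lowest of all 24.

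Mean levels of Rrm2 (± SD) were 54.5 ± 13.4 for CTRL, 35.4 ± 7.85 for Chemo, 33.3 ± 5.73 for MC, 32.9 ± 8.72 for MC + Chemo and 48.001 ± 20.5 for Lean. Rrm2 differed from CTRL on the log2 scale by -0.61 ± 0.26 in Chemo, -0.69 ± 0.26 in MC and -0.72 ± 0.25 in MC + Chemo (adjusted p = 1.00, 0.300 and 0.262). The gene had 16 to 92 reads per library, the smallest sum of the 10 members, so that single values carry a wide counting error.

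Mcm2 (ENSMUSG00000002870) and Mcm5 (ENSMUSG00000005410) are subunits of the helicase that opens DNA for copying. Mcm2 ran from 48.3 to 109 normalized counts in CTRL mice, 37.2 to 76.6 with Chemo, 40.8 to 66.0 with MC, 34.8 to 64.1 with MC + Chemo and 43.1 to 95.8 in Lean mice. Most treated libraries of Mcm2 lay within the CTRL range and the rest below it, CTRL 44 was the highest of all, and the log2 difference was -0.28 ± 0.26 in Chemo, -0.33 ± 0.26 in MC and -0.42 ± 0.24 in MC + Chemo. Without CTRL 44 it was -0.010, -0.068 and -0.16, so that most of the distance of Mcm2 from CTRL rested on that library.

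Mcm5 ran from 61.5 to 68.6 normalized counts in CTRL mice, 34.2 to 80.5 with Chemo, 39.7 to 77.7 with MC, 36.1 to 69.4 with MC + Chemo and 56.3 to 94.8 in Lean mice. Mcm5 had the tightest CTRL group of the 10, at 63.5 ± 3.38 (SD, n = 4), and the treated groups spread to both sides of it. Its log2 difference was -0.14 ± 0.26 in Chemo, -0.058 ± 0.26 in MC and -0.15 ± 0.25 in MC + Chemo, each smaller than its standard error. Of these 3 genes of DNA synthesis, Rrm2 was the one farthest below CTRL in each treated group.

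Top2a (ENSMUSG00000020914), the topoisomerase that untangles DNA before chromosomes part, is also the enzyme that doxorubicin poisons. The 4 CTRL libraries had 1081, 827, 1995 and 653 normalized counts of Top2a, the 5 Chemo libraries had 691, 798, 663, 692 and 793, and the 5 MC libraries had 932, 597, 753, 573 and 783. The 6 MC + Chemo libraries ran from 306 through a median of 575 to 1242, and the 4 Lean libraries had 833, 635, 1148 and 886. CTRL 44 was far above all other libraries, CTRL 31 and CTRL 70 lay among those of the treated groups, and MC + Chemo 25 stood above the rest of its group.

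Mean levels of Top2a (± SD) were 1139 ± 597 for CTRL, 727 ± 63.3 for Chemo, 728 ± 147 for MC, 659 ± 341 for MC + Chemo and 875 ± 211 for Lean. The log2 difference of Top2a from CTRL was -0.64 ± 0.33 in Chemo, -0.63 ± 0.33 in MC and -0.80 ± 0.32 in MC + Chemo (adjusted p = 1.00, 0.469 and 0.314). Without CTRL 44 it was -0.23, -0.24 and -0.40. Chemo and MC had nearly equal means of Top2a, and MC + Chemo held both the lowest library, MC + Chemo 52, and a library above all of Chemo and MC.

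Birc5 (ENSMUSG00000017716), survivin, belongs to the complex that guides chromosomes to their places. Birc5 ran from 135 to 196 normalized counts in CTRL mice, 113 to 199 with Chemo, 75.3 to 212 with MC, 93.0 to 144 with MC + Chemo and 126 to 226 in Lean mice. All groups of Birc5 overlapped, with MC 41 lowest and Lean 24 highest of the 24 libraries. Birc5 differed from CTRL on the log2 scale by -0.23 ± 0.24 in Chemo, -0.18 ± 0.24 in MC and -0.44 ± 0.23 in MC + Chemo (adjusted p = 1.00, 0.810 and 0.433).

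Cdc20 (ENSMUSG00000006398) activates the ubiquitin ligase that ends metaphase. Normalized counts of Cdc20 were 176, 126, 205 and 153 in the 4 CTRL mice, 157, 129, 153, 91.1 and 189 in the 5 Chemo mice and 114, 96.1, 136, 93.0 and 148 in the 5 MC mice. The lowest of the 6 MC + Chemo mice had 92.2, their median was 132 and the highest had 255, while the 4 Lean mice had 129, 106, 160.0 and 114. All groups overlapped, MC + Chemo 25 was the highest library of all, MC + Chemo 52 was level with the highest CTRL library, and the other 4 of that group lay within or below the CTRL range. The log2 difference of Cdc20 from CTRL was -0.19 ± 0.26 in Chemo, -0.47 ± 0.27 in MC and -0.12 ± 0.25 in MC + Chemo (adjusted p = 1.00, 0.494 and 0.872). Cdc20 in MC + Chemo 52 stood opposite to Mki67, Top2a and Rrm2, which had their lowest value in that library.

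Ordered by their means, the groups placed CTRL highest for 8 of the 10 members and Lean highest for Birc5 and Mcm5. The lowest group was MC + Chemo for 5 members, MC for 4 and Chemo for 1. Of the 40 pairs of neighbours in these orders, the libraries overlapped in 40, and the means differed by less than the larger of the 2 SDs in 38. The exceptions were Mki67 between Lean and Chemo and Ccnb1 between CTRL and MC + Chemo.

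Moringa concentrate was added to chemotherapy in MC + Chemo, so that the comparison with Chemo followed the addition of moringa concentrate and the comparison with MC the addition of chemotherapy. The 10 members had a median log2 difference of -0.098 against Chemo and -0.062 against MC, with 7 and 6 of the 10 lower. None passed an adjusted p of 0.05 by edgeR, or by DESeq2, which called 0.294% and 0.0481% of all genes, and none had an unadjusted p below 0.05 by edgeR, where 6.57% and 6.16% of all genes were lower at that limit and 0% were called. Leaving out single libraries took these medians up to -0.00067 against Chemo (without MC + Chemo 52) and 0.030 against MC (without MC 42). The widest member difference against Chemo was that of Mki67, -0.56 ± 0.29 (adjusted p = 0.475), and against MC it was also that of Mki67, -0.42 ± 0.29 (adjusted p = 0.635). Cdc20 was the member farthest above MC, at 0.35 ± 0.24 (adjusted p = 0.634).

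The interaction asks whether moringa concentrate shifted a gene by another amount with chemotherapy than without it. It was above 0 for 9 of the 10 members, with a median of 0.46 on the log2 scale, and 0 passed the adjusted test, as did 0% of all genes. High CTRL libraries raise this contrast, so it is not separate from the differences from CTRL given above. Without CTRL 44 its median was 0.23. Ccna2 alone had an unadjusted p below 0.05, at 0.76 ± 0.30 (adjusted p = 0.695), where 3.57% of all genes lay higher and 3.3% lower at that limit. DESeq2 had 2 members higher at that limit, against 4.37% of all genes, and called 0 members and 0% of all genes. Mki67, at 0.061 ± 0.43, and Birc5, at -0.040 ± 0.32, were near 0.

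Lean mice were the control for the diet. The 10 members had a median log2 difference of -0.16 against CTRL, from -0.56 to 0.19, with 7 lower and 3 higher. None passed the adjusted test, where edgeR called 0% and DESeq2 0.00601% of all genes, and Ccna2, at -0.56 ± 0.23 (adjusted p = 1.00), was the 1 member lower at an unadjusted p below 0.05, against 1.74% of all genes. Mki67, at 0.0025 ± 0.31, and Cdk1, at -0.0042 ± 0.29, had differences close to 0. Cdk1 was at -0.50 without Lean 24 and at 0.19 without Lean 21. The Lean group was the most uneven of the 5 for Cdk1, at 161 ± 96.1 (SD, n = 4), with Lean 24 far above the other 3. Without Lean 24 the median difference of the 10 was -0.48, and without CTRL 44 it was 0.045.

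The libraries were then ordered by a score, the mean over the 10 members of the log2 normalized count after each member was scaled to a mean of 0 and an SD of 1 over the 24 libraries. The score ran from 0.35 to 1.58 for CTRL, -0.42 to 0.14 for Chemo, -1.25 to 0.37 for MC, -1.21 to 0.29 for MC + Chemo and -0.63 to 1.59 for Lean. All Chemo and MC + Chemo libraries lay below the 4 of CTRL, and MC 59 was the 1 treated library above the lowest of CTRL, CTRL 70. Lean 24 was among the 6 highest libraries for 10 of the 10 members and CTRL 44 for 9, whereas MC 41 was among the 6 lowest for 9.

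The 3 libraries lowest in human CDH1 were also the 3 with the highest murine score: Lean 24 at 1.59, CTRL 44 at 1.58 and CTRL 17 at 0.82. Their human EPCAM, another epithelial gene, was 1207, 552 and 73.8 against 2411 to 5399 in the other 21, and their human ZEB1, a repressor of CDH1, was 568.1, 1376 and 1344 against 70.8 to 420.1. As a description over 24 libraries that share their reads between both genomes, the Pearson r of the murine score with log2 human CDH1 was -0.51, and it was -0.16 over the other 21. Human KRT18 set them apart less, at 8014 in Lean 24, 3423 in CTRL 44 and 2124 in CTRL 17 against 9360 to 20452, so that Lean 24 lay close to the rest. Human EPCAM, KRT18 and ZEB1, and the grouping of these 3 libraries, were chosen after the values were seen.

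**Figure D2:**
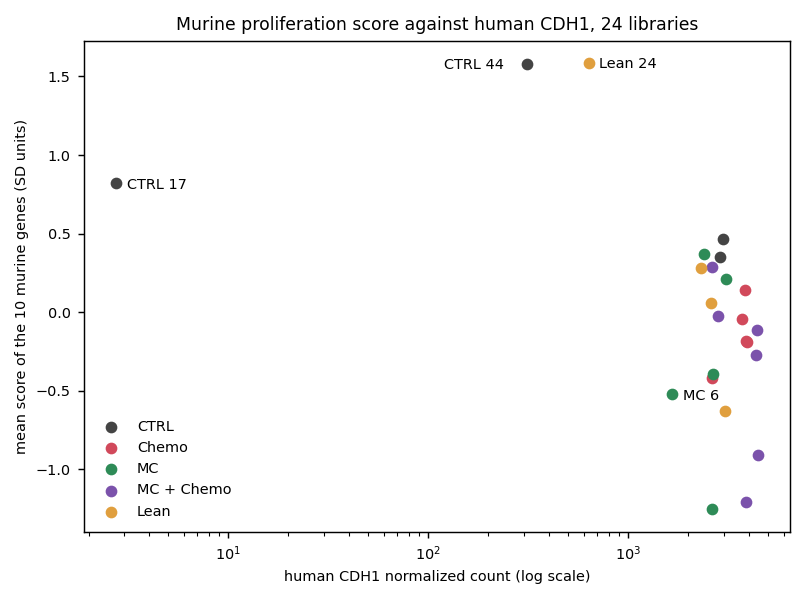
Mean score of the 10 murine genes (y axis, in SD units) against the normalized count of human CDH1 (x axis, log scale), with a point per library coloured by group. CTRL 17, CTRL 44 and Lean 24 lie far left and above all others, and the other 21 libraries lie between 1656 and 4472 on the x axis.

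Without these 3 libraries, 2 of which are CTRL, the median log2 difference of the 10 members was -0.25 in Chemo, -0.29 in MC and -0.29 in MC + Chemo against the 2 CTRL libraries left. The members lower then numbered 8, 10 and 9 of 10, and those lower at an unadjusted p below 0.05 numbered 0, 1 and 2, against 0.498%, 1.92% and 6.32% of all genes in the same fit. Mki67 was then at -0.32 in Chemo, -0.49 in MC and -0.90 in MC + Chemo. Rrm2 was at -0.63, -0.72 and -0.75 in the same order, and Cdk1 at -0.29, -0.42 and -0.39. Top2a was at -0.034, -0.041 and -0.21. Rrm2 was thus as far below CTRL as with these libraries, whereas Top2a lay close to CTRL in Chemo and MC. The median difference from CTRL was smaller in all 3 groups without them. That was largely fixed beforehand, since the 2 CTRL libraries left out had the highest scores of their group and no treated library was left out. The part of the grafted cells in it was not tested.

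The low end of the score held MC 41 at -1.25, MC + Chemo 52 at -1.21 and MC + Chemo 43 at -0.91, the 3 libraries with the highest summed muscle and adipocyte markers. Their sums for 10 muscle genes, led by Acta1, were 38188, 539 and 64503 and for 8 adipocyte genes, led by Fabp4, 77655, 74818 and 7686. In CTRL these sums ran from 137 to 183 and from 1134 to 7857, so that MC + Chemo 52 stood apart by adipocyte genes far more than by muscle genes and MC + Chemo 43 by muscle genes alone. The library next in order, MC + Chemo 5, had 55704 for both lists together and a score of -0.023, and it was not left out. Without the 3 libraries the median log2 difference was -0.44 in Chemo, -0.49 in MC and -0.38 in MC + Chemo, with 10, 9 and 10 members lower. At an unadjusted p below 0.05, 5, 5 and 4 members were lower, against 2.94%, 2.7% and 5.19% of all genes in the same fit. MC + Chemo then differed from Chemo by a median of 0.049 in place of -0.098. That rise was largely fixed beforehand, since the libraries left out had the lowest scores.

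Among marker lists of the other host cells, the Pearson r with the score over the 24 libraries was 0.16 for macrophages (led by Lyz2), 0.063 for endothelial cells, -0.013 for fibroblasts, 0.050 for pericytes, -0.017 for neutrophils, 0.26 for natural killer cells and -0.24 for mast cells. It was -0.65 for red cells (5 of 10 markers present, led by Hbb-bs), -0.58 for adipocytes, -0.53 for keratinocytes (6 of 9 present, led by Dsp) and -0.50 for skeletal muscle. These are descriptions, since all lists share the scaling of one library. The summed red cell markers ran from 694 to 2389.8 for CTRL, 3739.6 to 14743 for Chemo, 3159 to 11125 for MC, 6044 to 21831 for MC + Chemo and 4576 to 5165 for Lean. Their part in the result was not tested.

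The host genes were next set against the human genes of the same name, because a short read from a conserved stretch of a human transcript could be counted for the mouse. Murine reads made up 4.54 (Mki67) to 17.3% (Mcm5) of the reads of both genes, with a median of 12.6% over the 10. Over the 4887 same-name pairs with at least as many reads in both genomes as the lowest member, that median was 30.2%. For each of the 10 the human reads were thus the larger number.

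If the murine count of a gene were nothing but a fixed share of its human reads, its murine to human ratio would not follow the murine to human ratio of the library, and the slope of the former on the latter would be 0. A gene read from the host alone, at an even level, would have a slope of 1. The slope on the log2 scale was 0.18 ± 0.20 (SE, 24 libraries) for Cdc20, the nearest to 0. It was 0.52 ± 0.27 for Ccnb1, 0.53 ± 0.29 for Top2a, 0.55 ± 0.26 for Ccna2, 0.59 ± 0.37 for Cdk1 and 0.79 ± 0.41 for Birc5. Mki67 at 1.06 ± 0.46, Mcm2 at 1.16 ± 0.40, Mcm5 at 1.29 ± 0.46 and Rrm2 at 1.47 ± 0.45 were at or above 1. The median over the 4887 pairs was 0.79, and that over the 10 members 0.69.

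These slopes lean on MC 41, the library with the largest murine share, and without it they were 0.72 for Cdc20, 1.11 for Ccna2, 1.13 for Ccnb1 and 1.25 for Top2a, and 1.90 (Cdk1) to 3.03 (Rrm2) for the other 6. The median over the 4887 pairs was then 1.25, so that Cdc20, Ccna2 and Ccnb1 lay below it, Top2a at it and the other 6 above it. Cdc20 was again the lowest of the 10. The murine to human ratio of Cdc20 varied over the libraries by an SD of 0.297 on the log2 scale, more than the 0.136 that counting alone would give, and for the other 9 members the SD was 0.411 to 0.783. For each of the 10 the SD was larger than the counting error. The same held for the medians over the 4887 pairs, an SD of 0.413 against a counting error of 0.104. This comparison cannot tell whether a part of the reads was shared, since the ratio also moves with the murine share of the library.

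The members also differed in which genes they followed from library to library. Over the 24 libraries the Pearson r of the murine level with a score of the 10 human genes was 0.75 for Ccna2, 0.71 for Ccnb1, 0.67 for Cdc20 and 0.55 for Top2a, and it was 0.42 for Cdk1 and 0.27 for Mcm2. Birc5 at 0.082, Rrm2 at 0.034, Mki67 at -0.022 and Mcm5 at -0.24 did not follow it. With the human gene of the same name, r was 0.73 for Ccnb1, 0.70 for Top2a and 0.65 for Cdc20, and -0.090 for Rrm2 and -0.14 for Mcm5, beside a median of 0.51 over the 4887 pairs. All of these are descriptions without a test, since both genomes were read from the same libraries.

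Within the murine members, Mki67, Birc5, Mcm5 and Rrm2 followed each other with r from 0.58 to 0.70, and Ccnb1, Ccna2 and Cdc20 followed each other with r from 0.63 to 0.74. Cdc20 had an r of -0.15 with Mki67, -0.21 with Mcm5 and -0.016 with Rrm2. Over the 45 pairs of members the median r was 0.47. Cdk1 was the member nearest to the score of the other 9, at 0.82, and Cdc20 the farthest, at 0.30. With that score Ccnb1 had an r of 0.58 and Ccna2 one of 0.72. For Cdc20, Ccnb1 and Ccna2 this was below the r with the human score. The groups of genes named here were formed after these values were seen.

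**Figure D3:**
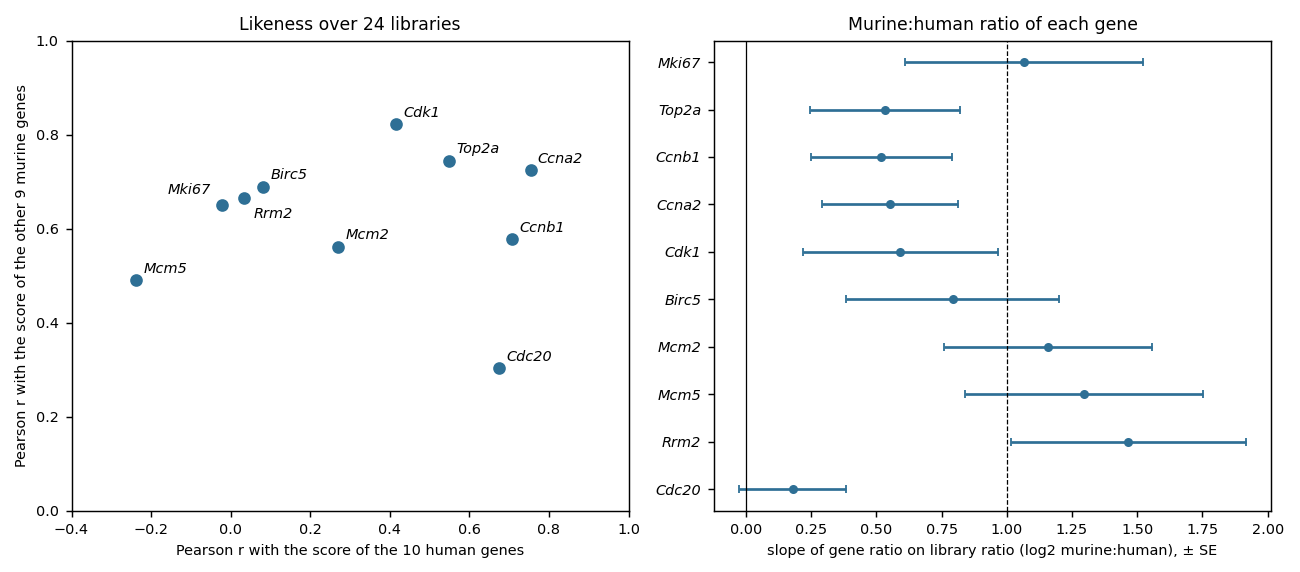
Left, Pearson r over 24 libraries of each murine gene with the score of the 10 human genes (x axis) and with the score of the other 9 murine genes (y axis); right, slope of each gene's log2 murine to human ratio on that of the library, with its SE, and lines at 0 and 1. Cdc20 has a slope of 0.18. Cdc20 (0.67 against 0.30), Ccnb1 (0.71 against 0.58) and Ccna2 (0.75 against 0.72) follow the human score more than the murine one. Mki67, Top2a, Cdk1, Birc5, Mcm2, Mcm5 and Rrm2 do the opposite.

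The murine score and the human score had an r of 0.46 (Spearman 0.40) over the 24 libraries, and the highest human scores were also those of CTRL 44 and CTRL 17. When each member was expressed as its log2 murine to human ratio of normalized counts, the median difference from CTRL was -0.086 in Chemo, -0.39 in MC and -0.48 in MC + Chemo. On this scale Chemo lay close to CTRL, and the human genes were lower in Chemo too. The human score (mean ± SD) was 0.57 ± 1.04 for CTRL, -0.40 ± 0.79 for Chemo, 0.046 ± 0.40 for MC and 0.13 ± 0.60 for MC + Chemo. The ratio thus does not show that the murine level in Chemo was that of CTRL. MC lay nearer to CTRL than on the scale of the murine level alone, where its median was -0.58. MC + Chemo lay about as far below CTRL as on that scale, where its median was -0.47. Murine reads were 4.89 ± 0.858% (SD) of the Mki67 reads of both species for CTRL, 5.39 ± 2.79% for Chemo, 3.88 ± 0.796% for MC, 3.09 ± 1.47% for MC + Chemo and 6.98 ± 1.49% for Lean. This share also moves with the murine share of each library.

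**Figure D4:**
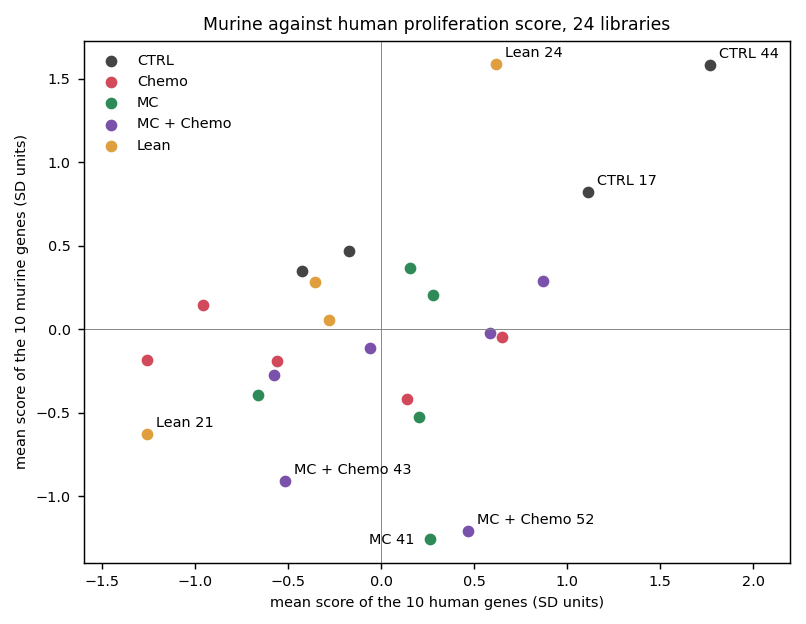
Mean score of the 10 murine genes (y axis) against that of the 10 human genes (x axis), both in SD units, with a point per library coloured by group. CTRL 44 is high on both axes, Lean 24 has the same murine score at a human score of 0.62, and MC 41 and MC + Chemo 52 are lowest for the murine genes at human scores above 0.

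Wider lists of the same pathway were read in the same fit. Of 33 further genes of mitosis 32 passed the filter on low counts, and of these 30 were lower than CTRL in Chemo, 30 with MC, 29 with MC + Chemo and 23 in the Lean mice, with median log2 differences of -0.34, -0.35, -0.39 and -0.15. None passed the adjusted edgeR test. At an unadjusted p below 0.05 the lower ones numbered 2, 4, 8 and 1, against 2.4%, 3.04%, 7.34% and 1.74% of all genes.

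In MC + Chemo the smallest p of this list were those of Kif11, a spindle motor, at -1.28 ± 0.36 (adjusted p = 0.211), Ttk, a kinase of the spindle checkpoint, at -1.05 ± 0.30 (adjusted p = 0.211) and Cenpe, a kinetochore motor, at -0.73 ± 0.25 (adjusted p = 0.260). Ttk was the 1 gene of the list that DESeq2 called there, with an adjusted p of 0.0469, where it called 1.14% of all genes. The level of Ttk was 36.8 ± 10.6 in CTRL and 18.1 ± 7.17 in MC + Chemo (mean ± SD). Bub3, another checkpoint gene, was at -0.52 ± 0.16 in Chemo, -0.43 ± 0.16 in MC and -0.38 ± 0.16 in Lean. Ube2c, a partner of the ligase that Cdc20 activates, was at -0.64 ± 0.25 in Chemo and -0.69 ± 0.25 in MC. Next in order were Ndc80, a kinetochore gene, at -0.53 ± 0.27 in Chemo, Aurkb, the kinase of the complex that survivin belongs to, at -0.71 ± 0.29 in MC, and the cytokinesis genes Ect2 and Anln, at -0.61 ± 0.34 and -0.62 ± 0.36 in Lean.

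Of 26 further genes of DNA synthesis, 23 were lower than CTRL in Chemo, 18 with MC, 19 with MC + Chemo and 17 in the Lean mice, with medians of -0.18, -0.16, -0.13 and -0.12. None passed the adjusted test of edgeR or DESeq2. At an unadjusted p below 0.05, 0, 1, 1 and 0 were lower, against 2.4%, 3.04%, 7.34% and 1.74% of all genes. The one gene in MC and in MC + Chemo was Mcm6, a helicase subunit beside Mcm2 and Mcm5, at -0.44 ± 0.18 and -0.43 ± 0.17. Ccne1, cyclin E1, was at -0.63 ± 0.31, -0.56 ± 0.31 and -0.52 ± 0.30 in the 3 treated groups. Ccnd1, cyclin D1, was above CTRL in Chemo, at 0.40 ± 0.19. Mcm4, a further helicase subunit, was at -0.44 ± 0.22 in MC and -0.37 ± 0.22 in Lean.

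Of 14 brakes of the cell cycle, 10 were higher than CTRL in Chemo, 8 with MC, 12 with MC + Chemo and 7 in the Lean mice, with medians of 0.21, 0.041, 0.23 and -0.0015 and 0 past the adjusted edgeR test. Cdkn1a, the p21 inhibitor that p53 induces, had 836 ± 234 normalized counts for CTRL, 1404 ± 288 for Chemo, 683 ± 104 for MC, 1344 ± 297 for MC + Chemo and 891 ± 244 for Lean (mean ± SD). Its log2 difference was 0.75 ± 0.22 in Chemo (adjusted p = 0.741), 0.68 ± 0.21 in MC + Chemo (adjusted p = 0.226) and 0.96 ± 0.20 for MC + Chemo against MC (adjusted p = 0.475). DESeq2 called the last of these with an adjusted p of 0.00853, where it called 0.0481% of all genes. Ccng1, cyclin G1, another p53 target, was at 0.65 ± 0.25 in Chemo and 0.83 ± 0.24 in MC + Chemo. The inhibitors Cdkn2a in Chemo, at 1.01 ± 0.54, and Cdkn2c and Cdkn1c in MC, at 1.11 ± 0.56 and 0.77 ± 0.52, had wide errors. The summed level of the 14 brakes was led by Cdkn1a and so does not stand for the 14 genes alike. This sum ran from 2900.1 to 3394 for CTRL, 3986 to 4467 for Chemo and 3819 to 4541 for MC + Chemo. For MC it ran from 2713 to 3864 and for Lean from 3306 to 3496.

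Rbl1, the p107 relative of the retinoblastoma protein and itself a gene of cycling cells, stood below CTRL within this list. Its level was 89.5 ± 10.2 for CTRL, 71.5 ± 8.60 for Chemo, 56.1 ± 7.37 for MC, 48.5 ± 11.3 for MC + Chemo and 70.03 ± 18.5 for Lean. The log2 difference was -0.66 ± 0.19 in MC (adjusted p = 0.242) and -0.89 ± 0.18 in MC + Chemo (adjusted p = 0.104) by edgeR. DESeq2 called both, with adjusted p of 0.0485 and 0.00401, where it called 1.69% and 1.14% of all genes.

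Between MC + Chemo and Chemo, the smallest p of each list were those of Rbl1 at -0.56 ± 0.17 (adjusted p = 0.272), Ccne2, cyclin E2, at 0.58 ± 0.22 (adjusted p = 0.348) and Ttk at -0.69 ± 0.28 (adjusted p = 0.385). Pola1, a subunit of DNA polymerase alpha, was at -0.41 ± 0.18 against Chemo and -0.31 ± 0.18 against MC, and Racgap1, a gene of cytokinesis, at -0.46 ± 0.27 and -0.58 ± 0.27. Cks1b, a small partner of cyclin-dependent kinases, lay above both, at 0.30 ± 0.17 and 0.38 ± 0.17. Against MC, Rfc4, a loader of the replication clamp, was at 0.87 ± 0.30 (adjusted p = 0.475) and Ccng1 at 0.67 ± 0.23 (adjusted p = 0.475). In the interaction, the mitosis genes with the smallest p were Ube2c at 0.88 ± 0.34, Bub3 at 0.57 ± 0.22 and Cks1b at 0.55 ± 0.26, all above 0 like most members.

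Over the 24 libraries the mean log2 level of the mitosis list had an r of 0.91 with the score of the 10 members, that of the DNA synthesis list 0.85 and that of the brakes -0.62. Outside all lists, the genes most like the score among 12882 genes with a symbol were Soat1 (r = 0.88), which esterifies cholesterol, Gas2l3 (0.84), a cytoskeletal gene of dividing cells, Ripk3 (0.82), a kinase of necroptosis, Atp8b2 (0.82), a phospholipid flippase, and Nrep (0.81). The central 90% of all genes had an r from -0.59 to 0.54.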

How the data were processed

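RNA of 24 xenograft tumors was read with QuantSeq, which reads the 3′ end of transcripts, as 50 bp forward reads. The deposited tables hold read counts per gene as the authors made them, one table for the murine and one for the human genome. The other deposited tables hold the same counts divided by a size factor per library (a signal, called normalized count here), made by the authors with DESeq2 1.22.2 per the submitters' processing notes, which name the murine build GRCm38. The human build and the handling of reads that match both genomes are not given in the sources used here. No gene of either table summed to fewer than 72 reads.

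Counts were tested with the edgeR quasi-likelihood test (edgeR 4.0.16, limma 3.58.1, R 4.3.3) after TMM scaling and filterByExpr, with Benjamini-Hochberg adjustment over all genes tested, in one fit of the 20 high-fat libraries, and for Lean in a fit of all 24. All 10 members passed the filter. The fitting code was checked on simulated data, where it found 141 of 200 genes changed by 1.5 on the log2 scale, with 10 false calls. Smaller changes, such as those of the members, were not simulated, so 0 calls do not show that the members were unchanged. Exact permutation tests compared means of log2 normalized count plus 1 (SciPy 1.17.1). Human namesakes were matched by symbol, and the raw murine to human ratios used a pseudocount of 0.5. Alternatives were DESeq2 1.42.0, RLE scaling, no filter, other sets of libraries in the fit, the other group for MC + Chemo 5, leaving out 3 libraries with an extra RNA cleanup, leaving out each library, a murine plus human library size, and, chosen after seeing the data, leaving out the 3 libraries lowest in human CDH1 and the 3 highest in summed muscle and adipocyte markers.

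The members and the lists were chosen with earlier results of these data known. The text names all members, the genes of each list with the smallest p per comparison (at most 3, given in part), the top gene of a marker list and the 5 genes most like the score. Beyond this rule it names human EPCAM and ZEB1 and further listed human markers. One gene that the rule names is not reported here.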

Additional observations from a re-analysis of the deposited data

Results flagged for a closer look

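The spread within each group was examined for each of the 10 members, 50 groups of libraries in all, for a single library far from the others of its group relative to the group's range. In 5 of the 50 a library passed a limit that chance alone passes in about 1 in 20 for normally distributed values. The members follow each other over the same libraries and the counts were not put on a log scale. The 50 are thus not separate draws, and their number cannot show an excess. Mki67 was high in CTRL 44, at 226 normalized counts. Ccnb1 was high in CTRL 17, at 135. Both libraries also had low human CDH1. Ccna2 was high in MC + Chemo 25, at 79.2. Cdk1 was low in MC 41, at 67.1, the library with the highest summed muscle and adipocyte markers and also one with an extra RNA cleanup. Mcm5 was high in CTRL 31, at 68.6, where the other 3 CTRL libraries lay close together.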

How the results depend on the processing

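Under every alternative the count of members past the adjusted test was 0 in all 7 comparisons. The median log2 difference of the 10 members moved beyond the within-group SD of the mean level in 4 cases. It was -0.086 in Chemo as the murine to human ratio, -0.29 in MC without the 3 libraries lowest in human CDH1, -0.48 in Lean without Lean 24 and 0.17 for the interaction with murine plus human reads as library size. Leaving out 1 library at a time, it ranged from -0.50 to -0.28 for Chemo, -0.63 to -0.43 for MC, -0.59 to -0.41 for MC + Chemo, -0.48 (without Lean 24) to 0.045 (without CTRL 44) in Lean and 0.23 (without CTRL 44) to 0.55 for the interaction. MC + Chemo against Chemo ranged from -0.14 to -0.00067 (without MC + Chemo 52), and MC + Chemo against MC from -0.14 (without MC 41) to 0.030 (without MC 42), a change of sign. Without CTRL 44 the median in Chemo was -0.28. With the murine plus human library size the median of all genes itself shifted to 0.088 for Chemo, -0.0066 for MC, -0.10 for MC + Chemo and 0.13 for Lean, and the medians of the members became -0.31, -0.53, -0.59 and 0.014. Over all murine genes edgeR called 0 and DESeq2 22 for Chemo, 282 for MC, 189 for MC + Chemo and 1 for Lean against CTRL, none of them a member. The cause was not tested. Of 2180 differences of single members recomputed under an alternative, 53 moved by more than the standard error, 125 had the opposite sign (10 of them in Chemo, MC or MC + Chemo against CTRL) and 0 passed the adjusted test.

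No paired analysis was possible because the groups compared share no replicate numbers. Placing MC + Chemo 5 in MC gave a median of -0.56 in MC and -0.50 in MC + Chemo. The depth limits Rrm2, Mcm2, Mcm5 and Ccna2 most, which had as few as 16 to 30 reads in a library.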
